A study of Mus musculus with 4 samples.

Results

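The epithelial sodium channel and its regulators were examined as 7 genes: the channel subunits Scnn1a, Scnn1b and Scnn1g, the channel-activating protease Prss8, the kinase Sgk1, the ubiquitin ligase Nedd4l and the steroid-inactivating enzyme Hsd11b2. They were chosen by symbol among the 26214 gene rows of the count tables, and all 7 passed the filter on low counts, among 16637 genes tested. The study measured polyadenylated RNA of mouse colon tumours raised with AOM (azoxymethane, a carcinogen) and DSS (dextran sulfate sodium, an agent that damages the lining of the colon). It asked how loss of GSK3B, a kinase that phosphorylates beta-catenin ahead of its degradation, from the intestinal epithelium alters the transcriptome. Tumours of mice labelled Gsk3b (IEC+/+) and Gsk3b (IEC-/-), where IEC stands for intestinal epithelial cells, gave 2 libraries per group, and both groups had received AOM and DSS. Strain, age and Cre driver are not in the labels. Nor is it said that the libraries of 1 group are different mice, and the p-values then reflect only sample-to-sample spread, which may be technical.

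The channel carries sodium across the apical membrane of salt-absorbing epithelia and is best known from the distal colon and the kidney collecting duct. It is assembled from alpha, beta and gamma subunits, encoded by Scnn1a, Scnn1b and Scnn1g. Aldosterone acts through the mineralocorticoid receptor to raise its activity, in part by inducing SGK1, which phosphorylates NEDD4L and so slows the removal of the channel from the membrane. Prostasin, the product of Prss8, promotes cleavage of the channel to its active form, and the product of Hsd11b2 inactivates glucocorticoids that would otherwise occupy the receptor. In rat distal colon, aldosterone is known to raise the mRNA of the beta and gamma subunits more than that of the alpha subunit.

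Scnn1b and Scnn1g lie on the plus strand of chromosome 7 (GRCm38), 96562 bases apart, and Sgk1 has several annotated starts on chromosome 10. The sequences before their starts are shown because Scnn1b and Scnn1g shared their highest library and because Sgk1 is a textbook corticosteroid target. They are RefSeq sequences of GRCm38.p6, plus strand, 5′ to 3′, ending at the base before a RefSeq start. The Scnn1g sequence ends before an earlier RefSeq start of that gene than the GENCODE start given further on. RefSeq windows are reported for 3 of the 7 genes. For the other genes no window or motif count is given here, which does not mean that they have none. Capitals mark a full glucocorticoid response element, AGAACA followed after 3 bases of any kind by its reverse complement TGTTCT, which reads alike on both strands and is bound by glucocorticoid and mineralocorticoid receptors.
Sgk1, chr10:21993640-21993889: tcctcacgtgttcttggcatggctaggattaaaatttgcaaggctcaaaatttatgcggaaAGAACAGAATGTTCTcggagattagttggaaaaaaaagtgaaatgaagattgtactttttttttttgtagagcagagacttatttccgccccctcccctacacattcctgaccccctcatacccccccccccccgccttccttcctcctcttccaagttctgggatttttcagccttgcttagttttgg
Scnn1b, chr7:121864788-121865037: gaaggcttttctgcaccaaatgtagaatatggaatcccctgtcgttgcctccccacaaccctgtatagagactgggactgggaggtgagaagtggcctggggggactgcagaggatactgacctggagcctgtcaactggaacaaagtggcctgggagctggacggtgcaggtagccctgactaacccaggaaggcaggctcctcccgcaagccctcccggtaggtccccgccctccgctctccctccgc
Scnn1g, chr7:121734229-121734419: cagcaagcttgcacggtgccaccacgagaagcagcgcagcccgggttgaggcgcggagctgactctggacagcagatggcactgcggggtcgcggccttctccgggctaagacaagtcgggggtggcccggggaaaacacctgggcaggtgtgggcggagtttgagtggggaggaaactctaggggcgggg
The element begins 189 and ends 175 bases before this start of Sgk1, 1 of 6 starts with a window. It was found in 3 of 32851 windows of 250 bases before RefSeq starts (0.00913%), with this Sgk1 window among the 3. In the 250 bases searched for Scnn1b and Scnn1g it had no match, nor had the TCF motif CTTTGAT, searched on both strands, which 3.21% of all windows hold. In Sgk1 the TCF motif had 1 match, before another of the 6 starts. Matches describe the letters only.

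Total counts were 25472503 to 27218515 per library. Gsk3b itself had 170 and 157 CPM (counts per 1000000 of the TMM-scaled library size) in IEC+/+ replicates 1 and 2 and 152 and 149 CPM in the IEC-/- pair (log2 fold change -0.12, edgeR quasi-likelihood adjusted p = 0.681). The deleted exons are not named and the tissue is mixed, so this does not check the labels, and the groups are the libraries labelled IEC+/+ and IEC-/-. All 17 epithelial markers passed the filter, with a summed level of 14435 and 12508 CPM in IEC+/+ against 8702 and 8442 in IEC-/-. Of the 17, 1 (Lgals4) fell over all genes tested, where 0.763% of all genes did. The list's median log2 fold change was -0.53 beside 0.01 over all genes. Differentiated colonocyte markers had summed levels of 4084 and 3100 CPM in IEC+/+ against 1042 and 1084 in IEC-/-. Of these 17 markers 8 fell, beside 0.763% of all genes, and their median log2 fold change was -2.42. In such bulk tissue, fewer cells of a type and less RNA per cell cannot be told apart.

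IEC-/- replicate 2 stood apart in markers of squamous epithelium. Their summed level was 163 and 127 CPM in IEC+/+, 32.7 CPM in IEC-/- replicate 1 and 2679 CPM in IEC-/- replicate 2. The basal keratin gene Krt5 had 0.193, 10.4, 0 and 795 CPM in the same order, and Trp63, which marks squamous basal cells, had 0, 0.870, 0.0719 and 34.0 CPM. Of 10 squamous markers 8 passed the filter, with Sprr1b at 0 counts in every library. IEC+/+ replicate 1 stood highest in smooth muscle markers (summed to 472 CPM, against 186, 230 and 255 in the others) and fibroblast markers (3500 CPM, against 1998 to 2317). Heat shock genes summed to 5450 and 8678 CPM in IEC+/+ against 3664 and 3652 in IEC-/-. Of these 10 genes edgeR called 0, beside 0.884% of all genes. At an unadjusted p under 0.05, 8 were lower, beside 9.12% of all genes.

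**Figure D1:**
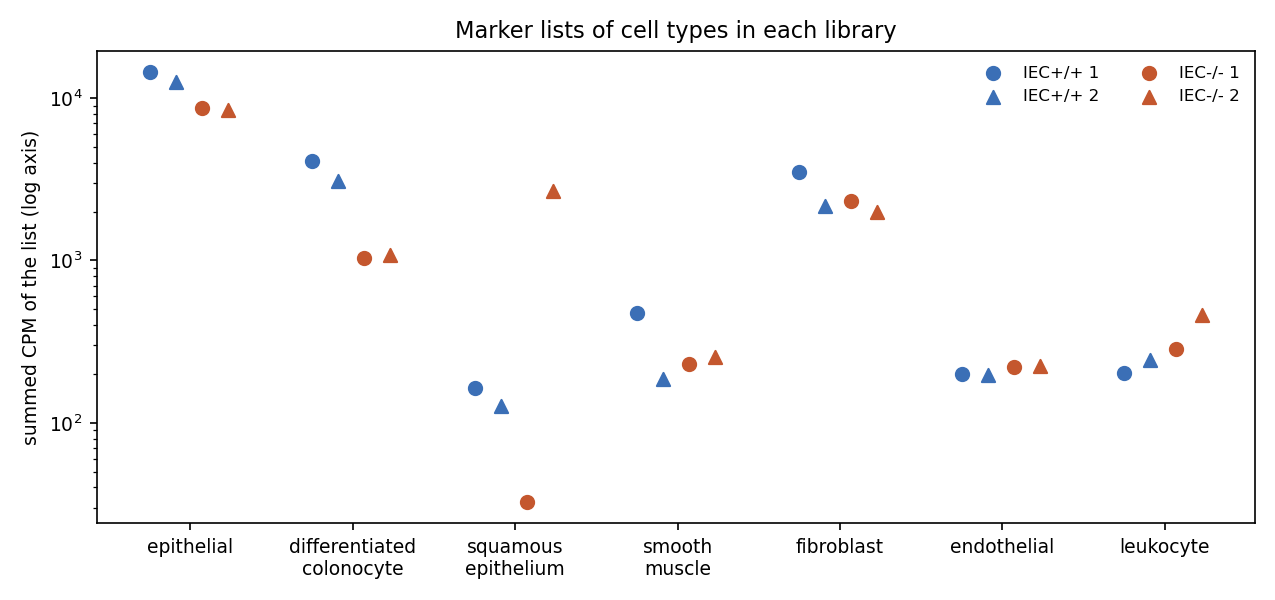
Summed CPM (log axis) of 7 marker lists in each of the 4 libraries; colour gives the group, circles replicate 1 and triangles replicate 2. Squamous markers are at 2679 CPM in IEC-/- replicate 2 and at 32.7 to 163 CPM in the others, and colonocyte markers are lower in both IEC-/- libraries.

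Of the 7 genes, 0 were called changed over all genes tested (edgeR quasi-likelihood test, Benjamini-Hochberg adjusted p under 0.05), where 0.884% of all genes were. At an unadjusted p under 0.05 there were 3, beside 16.6% of all genes: Scnn1a and Hsd11b2 lower in IEC-/- (9.12% of all genes) and Scnn1b higher (7.50%). DESeq2 called 2 (Scnn1a and Hsd11b2), beside 8.25% of the 15669 genes it gave an adjusted p. In edgeR without the filter on low counts 1 was called (Scnn1a), beside 1.82% of 20618 genes. With limma-voom 0 were called, beside 0.469% of all genes. The count was also 0 with DESeq2 size factors (0.860%), with a replicate block (1.27%), and without IEC-/- replicate 1 (4.24%) or replicate 2 (3.32%). The groups did not overlap in CPM for 4 of the 7, beside 48.0% of all genes: 3 were lower in IEC-/- (24.1%) and 1 higher (24.0%). The median log2 fold change of the 7 was -0.15.

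**Figure D2:**
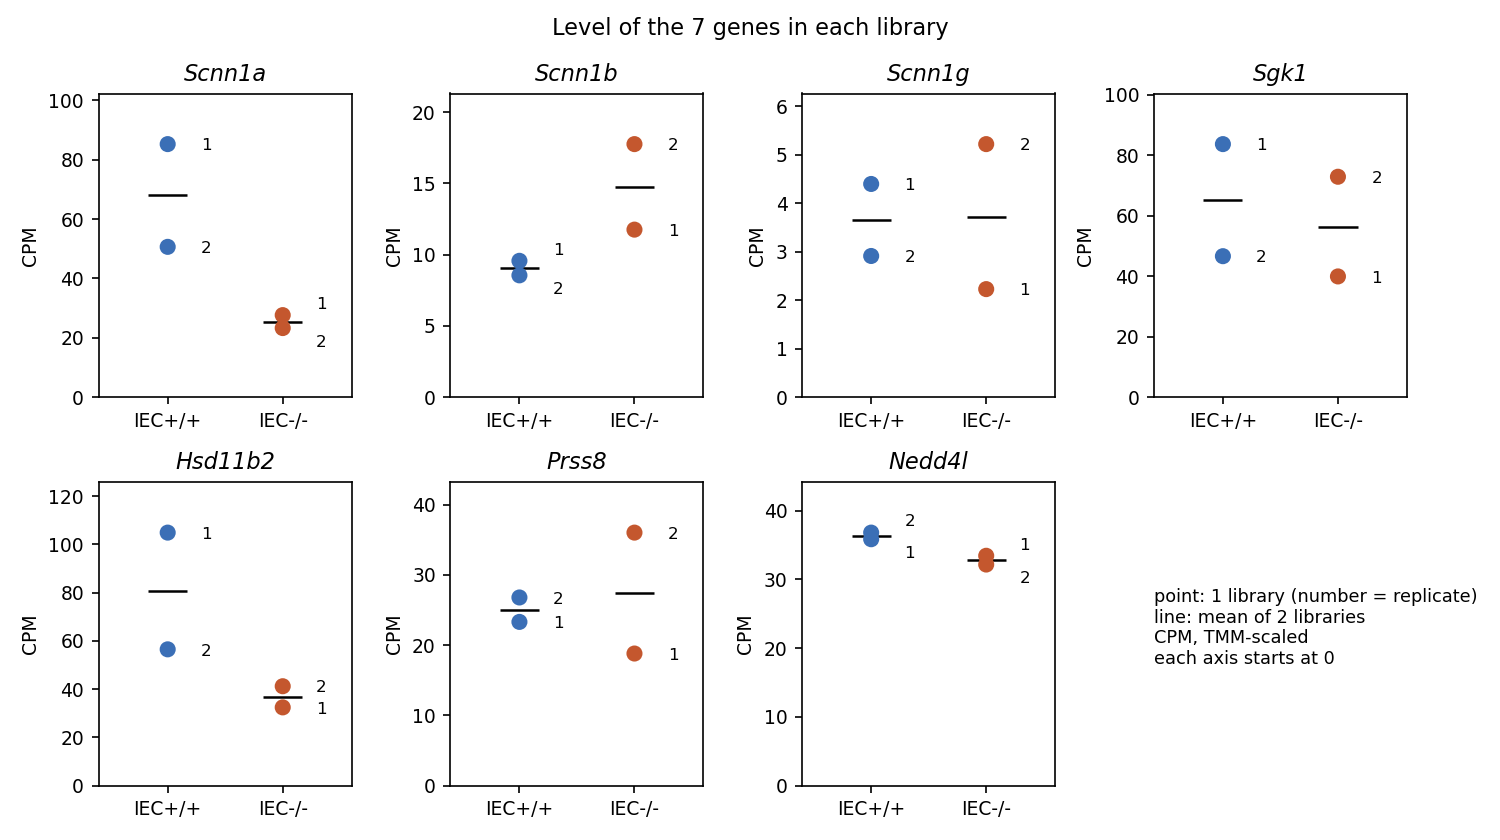
CPM of each of the 7 genes in the 4 libraries; points are libraries, numbered by replicate, and lines are means of 2 libraries. Scnn1a and Hsd11b2 are lower in both IEC-/- libraries, and Scnn1b, Scnn1g and Prss8 are highest in IEC-/- replicate 2.

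Scnn1a, the alpha subunit needed for channel assembly (chromosome 6, 125320659 to 125344943, GRCm38), had 85.3 and 50.7 CPM in IEC+/+ against 27.7 and 23.3 in IEC-/-. The groups did not overlap, and IEC+/+ replicate 1 was 1.68-fold above replicate 2. Means were 68.0 ± 24.5 and 25.5 ± 3.09 CPM (SD, n = 2 each), and the log2 fold change was -1.42 (SE 0.27, 95% interval -2.08 to -0.75, edgeR adjusted p = 0.0885). The value missed the threshold with edgeR and passed with DESeq2 (adjusted p = 8.99e-05) and in edgeR without the filter on low counts (adjusted p = 0.0476). Without IEC+/+ replicate 1 it was -0.995 (adjusted p = 0.480), and without IEC-/- replicate 2 it was -1.30 (adjusted p = 0.0838).

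Scnn1b, the beta subunit (chromosome 7, 121865038 to 121918514), went the other way, with 9.57 and 8.55 CPM in IEC+/+ against 11.8 and 17.8 in IEC-/-. The groups did not overlap, and the highest library was the one with squamous markers. Means were 9.06 ± 0.721 and 14.8 ± 4.24 CPM (SD, n = 2 each; log2 fold change 0.70, SE 0.28, 95% interval 0.01 to 1.40, edgeR adjusted p = 0.298). Without IEC-/- replicate 2 the log2 fold change was 0.37 (adjusted p = 0.599). Squamous markers were highest in IEC-/- replicate 2 and lowest in IEC-/- replicate 1, the libraries with the highest and the next highest Scnn1b, and their part in the difference was not tested.

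Scnn1g, the gamma subunit (chromosome 7, 121734479 to 121768475), was the scarcest member, with 114, 77, 62 and 137 counts in IEC+/+ replicates 1 and 2 and IEC-/- replicates 1 and 2. In CPM these were 4.40, 2.91, 2.23 and 5.22. The IEC-/- libraries thus held both the lowest and the highest value. The log2 fold change was 0.03 (SE 0.51, 95% interval -1.26 to 1.31, edgeR adjusted p = 0.990), and it turned to -0.72 without IEC-/- replicate 2 and to -0.24 without IEC+/+ replicate 2. The IEC-/- libraries differed 2.34-fold, and counting error alone is 12.7% at 62 counts.

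Scaled for length, Scnn1a was less in excess of the other subunit mRNAs in IEC-/-. In CPM per kb of exon, Scnn1a was at 20.6 and 12.3 in IEC+/+ and 6.69 and 5.64 in IEC-/-, and Scnn1b was at 3.64 and 3.25 against 4.47 and 6.75. The ratio of Scnn1a to Scnn1b on this scale was 5.68 and 3.78 in IEC+/+ and 1.5 and 0.835 in IEC-/-. Scnn1a made up 80.2% and 74.4% of the summed subunit level in IEC+/+ and 56.2% and 39.9% in IEC-/-. Scnn1b made up 14.1% and 19.7% against 37.5% and 47.7%, and Scnn1g 5.71% and 5.91% against 6.26% and 12.4%. The groups did not overlap in any of these shares or in the Scnn1a to Scnn1b ratio. For this ratio an exact two-sided permutation test gave p = 0.333, the smallest that 2 against 2 libraries allow. Scnn1a and Scnn1b had each separated, in opposite directions, so the separation of their ratio and this p-value were fixed in advance. Groups did not overlap in CPM for 48.0% of all genes taken singly, and no such background was computed for ratios or shares. The shares of a library add to a fixed total, so they are not separate results. The Scnn1g share of 6.26% rests on 62 counts, with a counting error of 12.7%, so its separation from 5.91% is not resolved. The ratio of Scnn1b to Scnn1g was 2.47 and 3.33 in IEC+/+ and 5.99 and 3.86 in IEC-/-. Groups again did not overlap in it (p = 0.333, the same exact permutation test). The Scnn1g counts behind this ratio were 114 and 77 in IEC+/+ and 62 and 137 in IEC-/-. With counts this low, the gap between 3.33 and 3.86 is not resolved from counting error. The summed level of the subunits was 25.7 and 16.5 CPM per kb in IEC+/+ and 11.9 and 14.1 CPM per kb in IEC-/-.

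**Figure D3:**
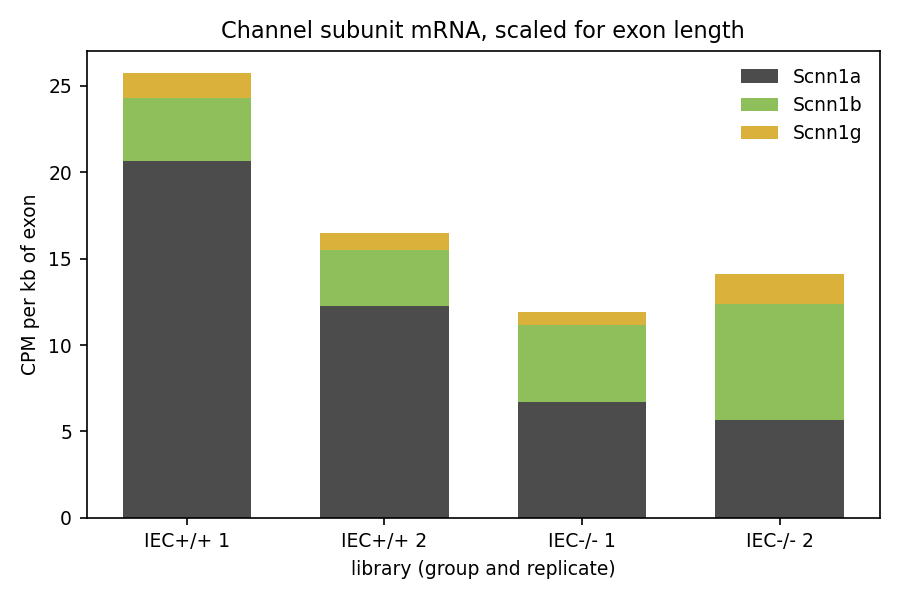
Stacked CPM per kb of exon of Scnn1a, Scnn1b and Scnn1g in each library. The Scnn1a part is 20.6 and 12.3 in IEC+/+ and 6.69 and 5.64 in IEC-/-, while the Scnn1b part is larger in both IEC-/- libraries.

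Prss8, which encodes prostasin (chromosome 7, 127925716 to 127930104, minus strand), had 23.3 and 26.8 CPM in IEC+/+ against 18.8 and 36.0 in IEC-/-. As with Scnn1g, the IEC-/- libraries were the lowest and the highest. The log2 fold change was 0.13 (SE 0.32, edgeR adjusted p = 0.892), and without IEC-/- replicate 2 it was -0.42 (adjusted p = 0.421). Scnn1b, Scnn1g and Prss8, 3 of the 7 genes, had their highest level in IEC-/- replicate 2, as did 27.7% of all genes. Scnn1a, Sgk1 and Hsd11b2 had theirs in IEC+/+ replicate 1, as did 26.2%. The summed squamous markers were also highest in IEC-/- replicate 2 and lowest in IEC-/- replicate 1, as were Prss8 and Scnn1g; their part in these values was not tested. Exons of Prss8 overlap those of Kat8 on the opposite strand by 122 bases, and whether reads were assigned by strand is unknown.

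Sgk1, the corticosteroid-induced kinase (chromosome 10, 21882184 to 21999903), had 83.7 and 46.6 CPM in IEC+/+ against 39.9 and 72.9 in IEC-/-. The groups overlapped, and the spread within each (1.79-fold and 1.83-fold) was larger than the difference between their means. The log2 fold change was -0.21 (SE 0.38, 95% interval -1.15 to 0.74, edgeR adjusted p = 0.844). Its sign turned when IEC+/+ replicate 1 (0.27) or IEC-/- replicate 1 (0.15) was left out. The immediate-early list, taken as a possible sign of tissue handling, summed to 1949 and 1526 CPM in IEC+/+ against 1280 and 1349 in IEC-/-. The libraries with the highest and the lowest Sgk1 also had the highest and the lowest sum. Between them the order differed: IEC-/- replicate 2 had more Sgk1 than IEC+/+ replicate 2 but a lower sum. The part of handling in the result was not tested.

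Nedd4l, the ligase that marks the channel for removal (chromosome 18), was the steadiest member. It had 35.9 and 36.8 CPM in IEC+/+ against 33.4 and 32.2 in IEC-/-. The groups did not overlap, but the difference was small (log2 fold change -0.15, SE 0.13, 95% interval -0.46 to 0.17, edgeR adjusted p = 0.629). Exons of Nedd4l overlap those of A330084C13Rik on the opposite strand by 277 bases.

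Hsd11b2, the enzyme that shields the mineralocorticoid receptor from glucocorticoids (chromosome 8, 105518755 to 105523988), had 105 and 56.5 CPM in IEC+/+ against 32.4 and 41.2 in IEC-/-. Again the IEC-/- libraries were the lower pair, though IEC+/+ replicate 1 was 1.86-fold above replicate 2. Means were 80.7 ± 34.2 and 36.8 ± 6.20 CPM (SD, n = 2 each; log2 fold change -1.13, SE 0.31, 95% interval -1.91 to -0.36, edgeR adjusted p = 0.173). DESeq2 gave an adjusted p of 0.00941. Without IEC+/+ replicate 1 the log2 fold change was -0.62 (adjusted p = 0.618). IEC+/+ replicate 1, highest in both Scnn1a and Hsd11b2, was also highest in summed epithelial, colonocyte, smooth muscle and fibroblast markers and immediate-early genes. The part of these lists in the differences was not tested.

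Compared per kb of exon, Hsd11b2 had the highest level of the 7 in IEC+/+ (43.8 ± 18.6 CPM per kb, SD, n = 2). It was followed by Scnn1a (16.5 ± 5.93), Prss8 (13.5 ± 1.33) and Sgk1 (13.3 ± 5.34), whose libraries overlapped one another. Scnn1b (3.44 ± 0.274), Nedd4l (2.06 ± 0.0385) and Scnn1g (1.22 ± 0.351) came next, with no overlap between neighbours. In IEC-/- the order was Hsd11b2 (20.0 ± 3.37), Prss8 (14.8 ± 6.57), Sgk1 (11.5 ± 4.75), Scnn1a (6.17 ± 0.747), Scnn1b (5.61 ± 1.61), Nedd4l (1.86 ± 0.0511) and Scnn1g (1.25 ± 0.707). There Hsd11b2 overlapped Prss8, Prss8 overlapped Sgk1, and Scnn1a overlapped Scnn1b. Sgk1 and Nedd4l have many transcripts, and with the longest transcript as the length Sgk1 was at 21.0 and 18.2 CPM per kb and Nedd4l at 4.67 and 4.21 CPM per kb in IEC+/+ and IEC-/-, which puts Nedd4l above Scnn1b and Sgk1 above Scnn1a (19.4) in IEC+/+, and Sgk1 above Prss8 (14.8) in IEC-/-.

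Because epithelial markers were lower in IEC-/-, the genes were also scaled to the geometric mean of the epithelial list. This shifted the median log2 fold change of all genes to 0.61 and called 37.8% of them, so values are relative to epithelial mRNA. On this scale Scnn1a remained lower (log2 fold change -0.80, edgeR adjusted p = 0.0333) and Scnn1b higher (1.30, adjusted p = 0.0226), and these 2 of the 7 passed. Hsd11b2 was at -0.51 (adjusted p = 0.123) and Prss8 at 0.72 (adjusted p = 0.100). Nedd4l turned from -0.15 to 0.45 (adjusted p = 0.0813) and Sgk1 from -0.21 to 0.41 (adjusted p = 0.279). Scnn1g was at 0.64 (edgeR adjusted p = 0.293). Relative to the shift of all genes, Scnn1a, Hsd11b2, Nedd4l and Sgk1 thus stayed below the median gene. Scnn1b, Prss8 and Scnn1g stayed above it, Scnn1g only slightly.

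**Figure D4:**
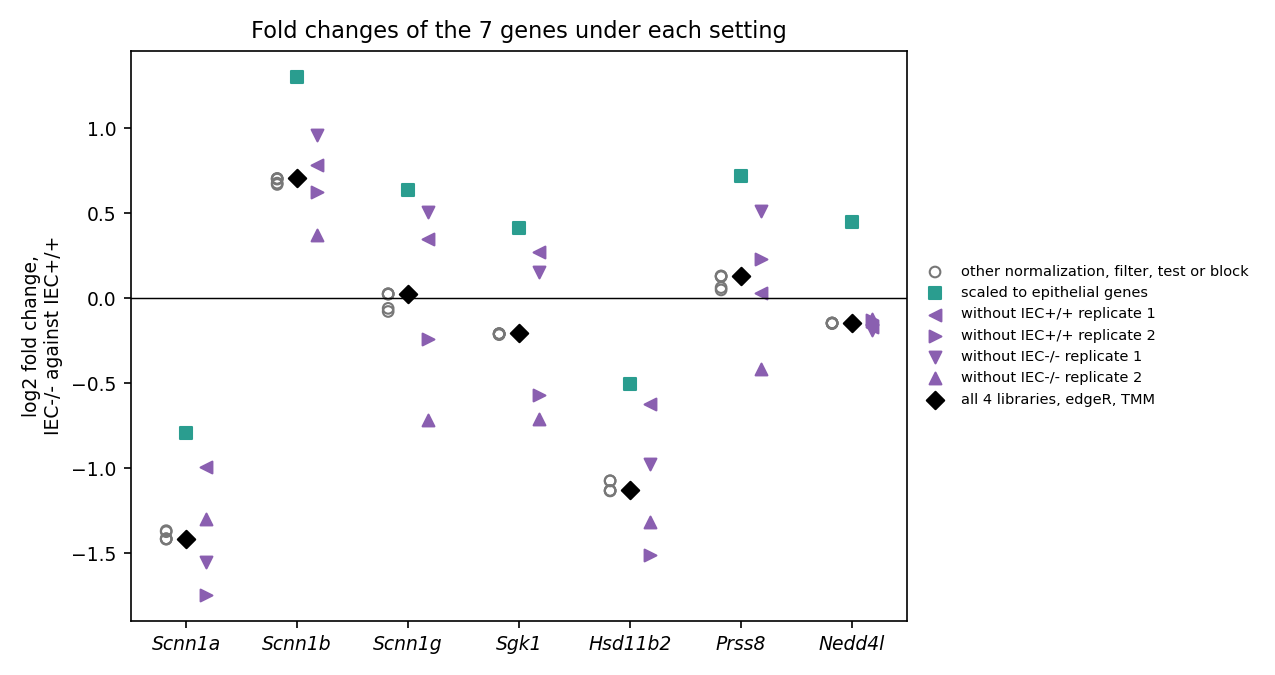
Log2 fold change (IEC-/- against IEC+/+) of each gene with all 4 libraries (diamonds), with each library left out (triangles), scaled to epithelial genes (squares) and under the other settings (open circles). Scnn1a and Hsd11b2 are below 0 and Scnn1b above 0 under every setting plotted, while Scnn1g, Sgk1, Prss8 and Nedd4l cross 0.

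Other genes of the pathway were taken from 5 lists with 51 genes tested. Of these 3 fell and 0 rose over all genes tested (0.763% and 0.120% of all genes fell and rose), and the median log2 fold change was -0.07. The 3 were Sgk2, Tmprss2 and Atp12a. Sgk2, a kinase related to Sgk1, had 9.26 and 9.65 CPM in IEC+/+ against 1.11 and 1.64 in IEC-/- (log2 fold change -2.78, SE 0.34, edgeR adjusted p = 0.0461). Atp12a, the colonic proton-potassium pump, had 137 and 98.1 CPM against 22.0 and 10.8 CPM (-2.84, SE 0.37, adjusted p = 0.0479). Tmprss2, a membrane serine protease, had 499 and 481 CPM against 266 and 258 CPM (-0.90, SE 0.11, adjusted p = 0.0461). Without IEC+/+ replicate 1 or replicate 2, settings in which 0 of all genes passed, the calls were lost (adjusted p = 0.417 to 0.426 and 0.221 to 0.240) with log2 fold changes of -2.81 and -2.75 for Sgk2, -0.88 and -0.93 for Tmprss2 and -2.58 and -3.06 for Atp12a. All 3 genes passed without either IEC-/- library. With limma-voom Sgk2 (0.0555) and Atp12a (0.0525) missed the threshold, and with the replicate block Sgk2 did (0.0522). Scaled to epithelial genes, Tmprss2 was no longer called (-0.30, adjusted p = 0.147).

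Among 9 corticosteroid receptors and targets 0 were called by edgeR, and the median was 0.14. At an unadjusted p under 0.05, 1 was lower and 1 higher, beside 9.12% and 7.50% of all genes. Nr3c2, the mineralocorticoid receptor, had 52.5 and 47.2 CPM in IEC+/+ against 23.0 and 15.1 in IEC-/-. Both IEC-/- libraries were lower, and IEC-/- replicate 2 was the lowest (log2 fold change -1.39, SE 0.23, edgeR adjusted p = 0.0707). It passed with DESeq2 (adjusted p = 1.57e-05) and in edgeR without the filter (0.0363) or scaled to epithelial genes (0.0393). It missed the threshold with limma-voom (0.0705), DESeq2 size factors (0.0726) and the replicate block (0.0501). With 1 library left out its log2 fold change ran from -1.74 (without IEC-/- replicate 1) to -1.12 (without IEC-/- replicate 2). Nr3c1, the glucocorticoid receptor, was at -0.32 (adjusted p = 0.425) and the corticosteroid target Tsc22d3 at 0.31 (0.470). Hsd11b1, which regenerates active glucocorticoid, had 6.72 and 7.04 CPM against 9.53 and 18.9 CPM (1.05, adjusted p = 0.259), and the transcription factor gene Klf9 was at -0.54 (0.316). Without IEC-/- replicate 2, Hsd11b1 was at 0.47, Klf9 at -0.26 and Nr3c1 at -0.15. Without IEC-/- replicate 1, Hsd11b1 (1.45, edgeR adjusted p = 0.0428) and Klf9 (-0.91, 0.0384) passed, and Nr3c1 was at -0.53. Tsc22d3 ran from 0.10 without IEC+/+ replicate 2 to 0.56 without replicate 1.

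Of 13 kinases and ubiquitin ligases acting on the channel, Sgk2 alone was called by edgeR (median log2 fold change -0.04). The WNK kinase genes Wnk4 and Wnk1 had 0.42 and 0.09 (adjusted p = 0.276 and 0.827), and Stk39, a kinase downstream of them, had 0.35 (0.299). Wnk4 was at 0.28 without IEC+/+ replicate 2 and Stk39 at 0.22 without IEC-/- replicate 1. Nedd4, the paralog of Nedd4l, had 758 and 746 CPM in IEC+/+ against 867 and 800 in IEC-/- (0.15, adjusted p = 0.588). Ywhab, a 14-3-3 adaptor gene, had -0.43 (0.166; 0.0233 by DESeq2).

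Among 10 channel-activating proteases and inhibitors, Tmprss2 was the called gene (median log2 fold change -0.07). St14, the matriptase gene, and Furin, whose product cleaves the channel during its maturation, were at -0.06 and -0.07 (edgeR adjusted p = 0.883 and 0.850). The inhibitor genes Spint1 and Spint2 had -0.33 and -0.41 (0.247 and 0.205; Spint2 passed by DESeq2, 0.0483). Plau, the urokinase gene, had 126 and 50.6 CPM in IEC+/+ against 22.8 and 41.4 CPM (-1.46, adjusted p = 0.241; -0.66 without IEC+/+ replicate 1).

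In the list of the sodium pump and colonic ion transport, 1 of 17 genes (Atp12a) was called and the median was -0.19. The sodium pump beta subunit gene Atp1b1 was at -0.22 (edgeR adjusted p = 0.480), and Fxyd4, a corticosteroid-induced pump regulator of the colon, was at 0.25 (0.739). Slc9a3, the apical sodium-proton exchanger, had 364 and 470 CPM against 398 and 495 CPM, with overlapping groups (0.10, adjusted p = 0.844). Slc9a2, a related exchanger, was at -0.80 (0.229; -0.44 without IEC+/+ replicate 1). The chloride-bicarbonate exchanger gene Slc26a3 had 34.9 and 14.3 CPM against 0.611 and 1.91 CPM (-4.29, edgeR adjusted p = 0.0681). It passed by DESeq2 (adjusted p = 1.57e-10) and in edgeR without the filter (0.0297) or scaled to epithelial genes (0.0145). It missed the threshold with limma-voom (0.129), the replicate block (0.0930) and DESeq2 size factors (0.0694). With 1 library left out its log2 fold change ran from -5.32 (without IEC-/- replicate 2) to -3.51 (without IEC+/+ replicate 1). The chloride channel gene Cftr was at -0.37 (edgeR adjusted p = 0.408), and at -0.12 and -0.59 without IEC+/+ replicate 1 and 2.

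**Figure D5:**
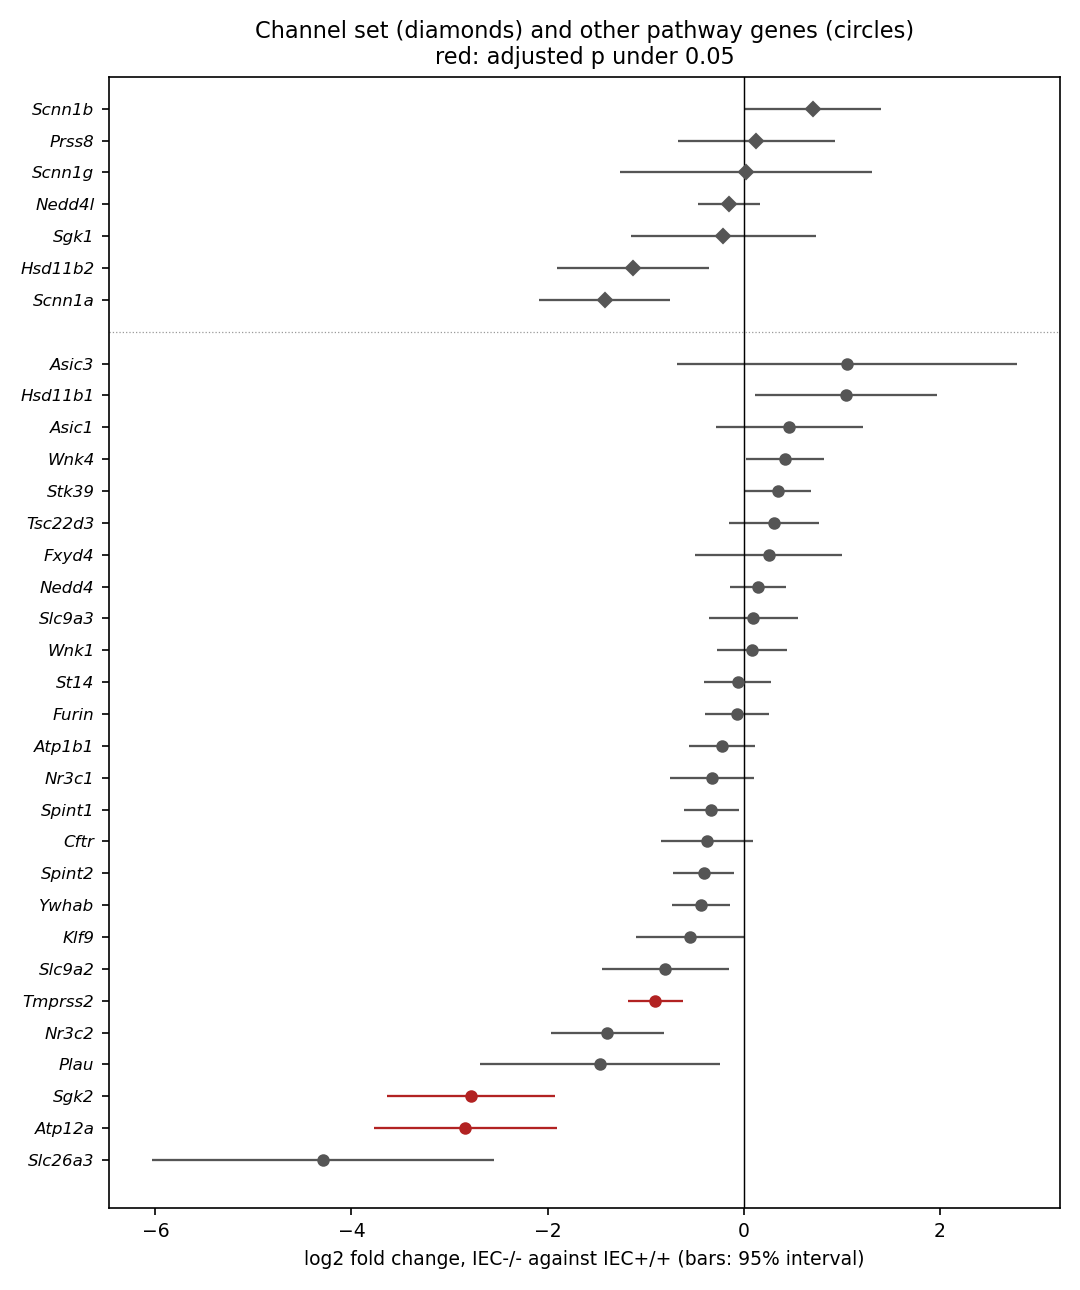
Log2 fold changes with 95% intervals of the 7 genes (diamonds) and 26 other pathway genes (circles); red marks an adjusted p under 0.05. Atp12a, Sgk2 and Tmprss2 are red, all below 0, and the intervals of Scnn1a, Hsd11b2 and Scnn1b lie to 1 side of 0 without passing after adjustment.

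For each of the 7 genes, the genes with the most similar profile over the 4 libraries were sought among those with a mean of at least 10 CPM, by Euclidean distance of centred log2 CPM. With 4 libraries many profiles lie close, so these are descriptions. Scnn1a lay nearest to Tcf7l1 (distance 0.0159; 41.9, 24.9, 13.7 and 11.4 CPM) and Cd55 (0.131). Scnn1b lay nearest to Grhl3 (0.0874; 9.96, 9.65, 12.6 and 18.8 CPM) and P3h4 (0.0879), and Scnn1g to Myorg (0.239) and Gja1 (0.244). Sgk1 was nearest to Tnfrsf12a (0.117), and Hsd11b2 to Dgkh (0.171) and Abcg2 (0.206). Prss8 was nearest to Slc26a10 (0.0716) and Bid (0.0847), and Nedd4l to Dnajc21 (0.0169) and Pak1ip1 (0.0196).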

How the data were processed

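RNA of 4 libraries, 2 per group by their titles, was analysed. Each deposited table gives unnormalized counts by gene symbol. TopHat, edgeR, limma and the build mm10 are listed in the submitters' processing notes; how reads were counted, with which annotation and whether by strand, is not given in the sources used here. Testing used edgeR 4.0.16 under R 4.3.3 (TMM factors 0.955 to 1.05, default expression filter, quasi-likelihood F-test, no other term, Benjamini-Hochberg over 16637 genes), with standard errors from the F statistic and 95% intervals. DESeq2 1.42.0 and limma-voom (limma 3.58.1) were alternatives, besides other scalings, no filter, a replicate block and leaving out each library. Levels per kb use the union of GENCODE M21 exons (GRCm38, the assembly of mm10). Libraries of a group differed beyond sampling noise (chi-square per degree of freedom 33.8 and 66.6). The 7 genes and the lists were chosen with earlier results of these data known. Named pathway genes were those called, the 4 with the smallest p per list, and a set fixed by function, and the 2 nearest profiles per gene; 2 genes under this rule are not reported here; squamous markers, Lgals4 and Gsk3b are named as checks.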

Additional observations from a re-analysis of the deposited data

How the results depend on the processing

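Directions of Scnn1a, Scnn1b and Hsd11b2 held under all 10 alternatives run, with log2 fold changes of -1.75 to -0.80, 0.37 to 1.30 and -1.51 to -0.51. Groups did not overlap in CPM for these genes, so leaving out 1 library could hardly turn a direction. The other alternatives reuse the same 4 libraries, so the 10 are not independent checks. Scnn1a passed under 3 (edgeR scaled to epithelial genes -0.80, no filter on low counts -1.42, DESeq2 -1.42), Scnn1b under 1 (scaled to epithelial genes 1.30) and Hsd11b2 under 1 (DESeq2 -1.13). So 2, 1 and 2 of the 7 genes were called when scaled to epithelial genes, without the filter and by DESeq2. Leaving out 1 library gave -1.75 to -0.995 for Scnn1a, 0.37 to 0.96 for Scnn1b, -1.51 to -0.62 for Hsd11b2, -0.72 to 0.51 for Scnn1g, -0.71 to 0.27 for Sgk1, -0.42 to 0.51 for Prss8 and -0.19 to -0.12 for Nedd4l. A lone library is then assumed to vary like the others. Scnn1g also turned with limma-voom (-0.079) and the replicate block (-0.060), and the cause was not tested. Scaling to epithelial genes moves the median of all genes from 0.01 to 0.61, and with that shift Sgk1 (0.41) and Nedd4l (0.45) turned.

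Over all genes 147 were called, 127 lower and 20 higher. Scaled to epithelial genes there were 6293 (259 lower, 6034 higher), without the filter 376 (307 and 69), by DESeq2 1293 (811 and 482) and by limma-voom 78 (68 and 10). Leaving out 1 library gave 0 to 729 (0 to 398 lower, 0 to 344 higher): 0 without IEC+/+ replicate 1 or 2, 729 without IEC-/- replicate 1 and 567 without IEC-/- replicate 2. The pathway lists had 3 calls, and 23, 5, 7 and 1 under those 4 settings and 0 to 8 with 1 library left out. The replicate numbers are not said to pair samples (the correlation of replicate 1 minus replicate 2 between groups was 0.16 across genes). With the replicate block 211 genes were called, 38 of them higher, and 0 of the 7 (Scnn1a -1.37, adjusted p = 0.0501).

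Of 260 alternative values of the 26 named pathway genes, 214 kept direction and side of the threshold, 10 lost and 22 gained a call, and 14 turned. Scaled to epithelial genes Klf9 (0.050), Nr3c1 (0.28), Ywhab (0.16), Spint2 (0.19), Spint1 (0.27), Cftr (0.24), St14 (0.54), Furin (0.52) and Atp1b1 (0.37) turned. With 1 library left out, St14 ranged from -0.21 to 0.060 (without IEC-/- replicate 2), Furin reached 0.025 and Wnk1 -0.075 (both without IEC-/- replicate 1; Wnk1 up to 0.22), and Slc9a3 ranged from -0.076 (without IEC+/+ replicate 1; -0.071 without IEC-/- replicate 2) to 0.29. With the longest transcript as length, Scnn1a in IEC-/- was at 7.28, Sgk1 at 21.0 and 18.2 and Nedd4l at 4.67 and 4.21 CPM per kb, and Scnn1g made up 5.09% of the subunits in IEC+/+. Depth limited Scnn1g most, at 62 to 137 counts.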

Other observations

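Among the acid-sensing channels, relatives of the sodium channel subunits, all but Asic1 were scarce in these tumours. In CPM, Asic1 was above the channel subunit Scnn1g in every library. Asic1 had 6.10 and 8.25 CPM in IEC+/+ against 8.38 and 11.5 in IEC-/- (log2 fold change 0.47, edgeR adjusted p = 0.507), and Asic3 had 0.193 to 0.686 CPM (1.05, adjusted p = 0.519). Without IEC-/- replicate 2 these were 0.22 and 0.68, and without IEC+/+ replicate 1 Asic1 was at 0.26. Asic2, Asic4 and Asic5 had 0 to 4 counts per library and were not tested.

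The IEC-/- libraries also differed from each other in 2 serine protease genes of the channel-activating list, named after their values were seen. Prss27 had 1.31 and 4.12 CPM in IEC+/+ against 1.22 and 43.3 in IEC-/- (log2 fold change 3.03, SE 1.49, edgeR adjusted p = 0.397). Prss22 had 23.7 and 23.0 CPM against 3.70 and 40.8 CPM (-0.07, SE 0.95, adjusted p = 0.984). Both were highest in IEC-/- replicate 2, the library with 2679 CPM of squamous markers. Prss22 was lowest in IEC-/- replicate 1, with 32.7 CPM of squamous markers. Prss27 had 34 counts both there and in IEC+/+ replicate 1, where squamous markers summed to 163 CPM. The part of squamous cells in these values was not tested.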
